A study of Mus musculus with 20 samples.

Results

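The NF-kB subunits and inhibitors described here are 10 genes of the 46603 gene identifiers in the count table. They are the 5 DNA-binding subunits Nfkb1, Nfkb2, Rel, Rela and Relb and the 5 inhibitors or feedback genes Nfkbia, Nfkbib, Nfkbie, Nfkbiz and Tnfaip3. The members were listed by gene symbol, with no threshold on a measured value but with earlier results of these data known, and each was found once in the table. All 10 passed the filter on low counts in T cells and 9 passed it in melanoma cells, where Tnfaip3 did not. Thapsigargin (TG), an inhibitor of the calcium pumps of the endoplasmic reticulum, raised Relb and Nfkb2 mRNA in melanoma cells and in resting T cells, whereas in activated T cells Relb rose less and Nfkbia fell.

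The study measured mRNA by sequencing of total RNA in 20 mouse libraries, 2 for each of 10 groups. The 8 melanoma libraries came from B16F10 cells, a mouse melanoma line kept in puromycin, with a control genotype or a knockout (KO) of Ccdc101, a subunit gene of acetyltransferase complexes now named Sgf29. Each genotype received TG at 50 ng/mL or dimethyl sulfoxide vehicle for 8 hours. The 12 T cell libraries came from CD8 T cells with the OT-I antigen receptor and Cas9, all kept in puromycin with IL-2, IL-7 and IL-15. Control T cells were resting or were activated for 24 hours with anti-CD3 antibody at 2.5 µg/mL, and both states were given TG or vehicle over 8 hours. T cells with a KO of Atp2a2, the gene of the pump SERCA2 that TG blocks, received vehicle and were labelled resting or activated. The sources used here do not say whether a KO population was 1 clone, nor whether the 2 libraries of a group were separate cultures, so p-values measure only the spread between these libraries, which may be technical.

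Depth ran from 9985311 to 17462770 counts a library. Sgf29 mRNA was 28.2 to 29.6 CPM (counts scaled to a common library depth) in control melanoma with vehicle and 18.7 to 19.6 CPM in the KO. Atp2a2 mRNA was 664 to 687 CPM in activated control T cells and 434 to 436 CPM in activated Atp2a2 KO cells. The 8 CD8 T cell markers summed to 3630 to 8230 CPM in T cell libraries and 2.89 to 8.19 CPM in melanoma libraries, and the 7 melanoma markers to 11100 to 17200 CPM in melanoma and 0.304 to 7.50 CPM in T cells. Among T cells, the melanoma markers summed to 5.07 to 7.50 CPM in control libraries and 0.304 to 1.28 CPM in Atp2a2 KO libraries. That split runs along every comparison of Atp2a2 KO with control cells, and its cause was not tested. The 2 libraries labelled resting Atp2a2 KO went against their label. Their 8 activation markers summed to 15700 and 15800 CPM, beside 2650 to 2730 CPM in resting control and 14400 to 14700 CPM in activated control cells with vehicle. Resting control cells with TG had 6280 and 6300 CPM. Among the markers, Cd69 did not separate the states, at 119 and 117 CPM in resting and 115 and 112 CPM in activated control cells with vehicle. The B cell markers summed to at most 5.15 CPM in any library. The 7 RNA quality genes, all mitochondrial, summed to 8870 to 12600 CPM, with 4 of the 7 above 1 CPM in each group. The 2 libraries are called labelled resting throughout, and leaving them out changed no member call in the other T cell comparisons.

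NF-kB transcription factors are dimers of Rel-family subunits that inhibitor proteins of the IkB family hold in the cytoplasm of unstimulated cells. The IkB kinase complex marks the inhibitor for destruction in the canonical branch, which frees mainly dimers with RelA or c-Rel, and a slower non-canonical branch processes the Nfkb2 precursor, the usual partner of RelB. Several subunits and inhibitors are themselves NF-kB target genes, so that the pathway makes its own feedback, and in T cells signals from the antigen receptor also reach it.

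Promoter sequences are shown because several members are known targets of the pathway to which they belong. RefSeq's promoter table (GRCm38.p6) held entries for 7 of the 10 members. It held none for Nfkb1, Relb and Nfkbiz. The 250 bases before each start site were searched on both strands for the 10-letter kappa B consensus, and capitals mark each match. Nfkbia and Rel are given whole, and Nfkb2, Nfkbie and Tnfaip3 as 30 bases around 1 match or 2 overlapping matches. The Nfkbia window is chr12:55492648-55492897 and the Rel window chr11:23770970-23771219, both on the minus strand. The shorter stretches are chr19:46304689-46304718 (plus strand) for Nfkb2, chr17:45555584-45555613 (plus) for Nfkbie and chr10:19015403-19015432 (minus) for Tnfaip3.
Nfkbia: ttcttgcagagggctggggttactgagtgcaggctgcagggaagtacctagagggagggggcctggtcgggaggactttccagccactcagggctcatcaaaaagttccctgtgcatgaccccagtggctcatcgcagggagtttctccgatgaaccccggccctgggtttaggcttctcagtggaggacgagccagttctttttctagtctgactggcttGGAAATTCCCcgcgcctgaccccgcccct
Rel: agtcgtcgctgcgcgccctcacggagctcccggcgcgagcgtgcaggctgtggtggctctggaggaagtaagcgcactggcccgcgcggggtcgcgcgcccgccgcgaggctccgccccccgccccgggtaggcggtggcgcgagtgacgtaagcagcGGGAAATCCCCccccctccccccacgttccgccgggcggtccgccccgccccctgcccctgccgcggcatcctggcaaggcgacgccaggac
Nfkb2: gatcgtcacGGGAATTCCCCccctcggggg
Nfkbie: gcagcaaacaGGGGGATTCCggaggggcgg
Tnfaip3: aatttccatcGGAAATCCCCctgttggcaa

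A match was present in a promoter window of 5 of the 7 members with an entry, and in 8.23% of the 27025 genes with a window (7.25% of 32851 windows). In Nfkbia the match began 29 bases before the start site, and in Rel 2 overlapping matches began 92 and 91 bases before it. Nfkb2 had matches in each of its 3 listed windows, of which 1 lies wholly in exons of the gene and another shares 234 bases with them, and Tnfaip3 matches at 125 and 12 bases in 1 of its 2 windows, which shares 110 bases with its own exons. The windows of Nfkbib and Rela held no match, which says only that these letters are not in them. A match describes the sequence and is not evidence of binding.

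In GENCODE M21 on GRCm38, the gene bodies were at chr3:135584655-135691547 (Nfkb1), chr19:46304320-46312385 (Nfkb2), chr11:23736847-23770970 (Rel), chr19:5637483-5648130 (Rela) and chr7:19606217-19629438 (Relb). Those of the other members were at chr12:55489410-55492647 (Nfkbia), chr7:28758251-28767512 (Nfkbib), chr17:45555703-45563169 (Nfkbie), chr16:55811375-55838899 (Nfkbiz) and chr10:19000910-19015657 (Tnfaip3). Exons of Nfkb2 overlap Psd (299 bases) and AC114539.1 (531 bases) on the opposite strand, and exons of Nfkbib overlap Sirt2 (42 bases) and Ccer2 (314 bases). The strand used in counting is not stated, so a part of the Nfkb2 and Nfkbib counts cannot be told apart from those neighbours. Psd stayed at or below 2.93 CPM and Ccer2 at or below 0.291 CPM, while Sirt2 was at 81.8 to 162 CPM.

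TG changed the subunit genes of control melanoma cells by very different amounts. Relb, the non-canonical partner subunit, was at 5.96 and 6.54 CPM with vehicle and at 42.5 and 45.2 CPM with TG. Nfkb2, the precursor gene of the same branch, was at 50.7 and 50.5 CPM with vehicle and at 127 and 130 CPM with TG. Groups did not overlap for either gene, and both rose by more than 2-fold: the log2 change was 2.82 ± 0.10 for Relb (SE, adjusted p = 2.3e-26) and 1.34 ± 0.052 for Nfkb2 (adjusted p = 1.8e-25). Every test named here is edgeR's quasi-likelihood test, with p adjusted by Benjamini-Hochberg over the whole table, and a call means an adjusted p below 0.05. In these bulk samples, fewer cells of a type and less RNA per cell cannot be told apart.

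Rel, the gene of c-Rel, rose from 11.3 and 9.84 CPM to 20.2 and 20.5 CPM (log2 0.94 ± 0.11, adjusted p = 6e-10). Rela, the main transactivating subunit, rose from 68.5 and 66.7 CPM to 92.8 and 99.8 CPM (log2 0.51 ± 0.052, adjusted p = 1.6e-11). Nfkb1, the precursor gene of the other small subunit, moved the opposite way, from 125 and 122 CPM to 107 and 107 CPM (fell by 0.21 ± 0.045 on the log2 scale, adjusted p = 8.3e-05). TG thus raised 4 subunit genes and lowered 1.

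The inhibitor genes moved less in control melanoma. Nfkbib, which encodes IkB-beta, rose from 45.2 and 51.8 CPM to 65.7 and 66.8 CPM (log2 0.46 ± 0.063, adjusted p = 1.9e-08). Nfkbiz, a nuclear IkB-like regulator, rose from 6.33 and 5.71 CPM to 8.35 and 7.80 CPM (log2 0.42 ± 0.16, adjusted p = 0.017); DESeq2 did not call it (adjusted p = 0.14), and the call was also lost with no filter and without the second vehicle or the first TG library. Nfkbia, which encodes the classical inhibitor IkB-alpha, was at 7.79 and 5.86 CPM with vehicle and 6.21 and 8.18 CPM with TG. Nfkbie, which encodes IkB-epsilon, was at 9.80 and 9.54 CPM and then 8.54 and 11.4 CPM. The libraries of the 2 groups overlapped for Nfkbia and Nfkbie, and neither was called (adjusted p = 0.77 and 0.83). Tnfaip3, a ubiquitin-editing enzyme that shuts off the pathway, was too low to test, with 13 and 14 counts in vehicle libraries and 8 and 2 in TG libraries.

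Of the 9 members tested in control melanoma, 6 were called higher with TG and 1 lower, where 35.7% of all 12540 genes were called higher and 36.1% lower. At least 2-fold higher were 2 of the 9, against 10.7% of all genes. The median log2 change over the 9 was 0.46. Medians over all genes tested lay between -0.04 and 0.01 in each of the 16 comparisons.

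In Ccdc101 KO melanoma cells, TG raised Relb from 8.20 and 9.37 CPM to 65.4 and 61.4 CPM (log2 2.85 ± 0.091, adjusted p = 2.7e-28). Nfkb2 rose from 57.5 and 59.9 CPM to 170 and 178 CPM (log2 1.57 ± 0.049, adjusted p = 1.4e-28). Rel (log2 0.64) and Rela (log2 0.61) rose as well. Nfkb1 was at 160 and 164 CPM with vehicle and 158 and 154 CPM with TG and was not called (log2 -0.06 ± 0.042, adjusted p = 0.23). Nfkb2, Rel, Rela and Relb stood higher in the KO with TG than in the other 3 melanoma groups, while Nfkb1 was highest in the KO with vehicle.

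The inhibitor genes that TG left uncalled in control melanoma were called in the KO. Nfkbie rose from 11.01 and 11.8 CPM to 23.2 and 16.2 CPM (log2 0.77 ± 0.15, adjusted p = 0.00012), with TG libraries further apart than the vehicle libraries. Nfkbia rose from 7.03 and 8.94 CPM to 11.7 and 10.8 CPM (log2 0.50 ± 0.15, adjusted p = 0.0042), a call that DESeq2 did not make and that was lost without the first KO library with vehicle. Nfkbib rose by 0.52 and Nfkbiz by 0.43 on the log2 scale. The Nfkbiz call was lost with DESeq2, with no filter on low counts, and in 4 of 8 fits with 1 library left out. In all, 8 of the 9 members were called higher, where 34.1% of all genes were called higher and 36.3% lower, and 2 of the 9 were at least 2-fold higher, against 8.64% of all genes.

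The difference between the TG effects of the 2 genotypes was tested itself. It was called for Nfkbie (KO minus control, log2 0.73 ± 0.23, adjusted p = 0.045) and Nfkb2 (log2 0.22 ± 0.073, adjusted p = 0.033), so 2 of 9 members were higher, against 7.16% of all genes higher and 5.95% lower. DESeq2 called neither. Both calls were lost without either control vehicle library, the first control TG library or the first KO vehicle library, that of Nfkb2 also without the second KO TG library, and that of Nfkbie also without the second KO vehicle or the first KO TG library. For Relb the difference was 0.04 ± 0.16 (adjusted p = 0.93), and for Nfkbia, called in the KO and not in control, it was 0.44 ± 0.23 (adjusted p = 0.23). Nfkb1, called lower in control and not called in the KO, differed by 0.15 ± 0.062 (adjusted p = 0.1). That difference was called only with no filter on low counts (adjusted p = 0.028).

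**Figure D1:**
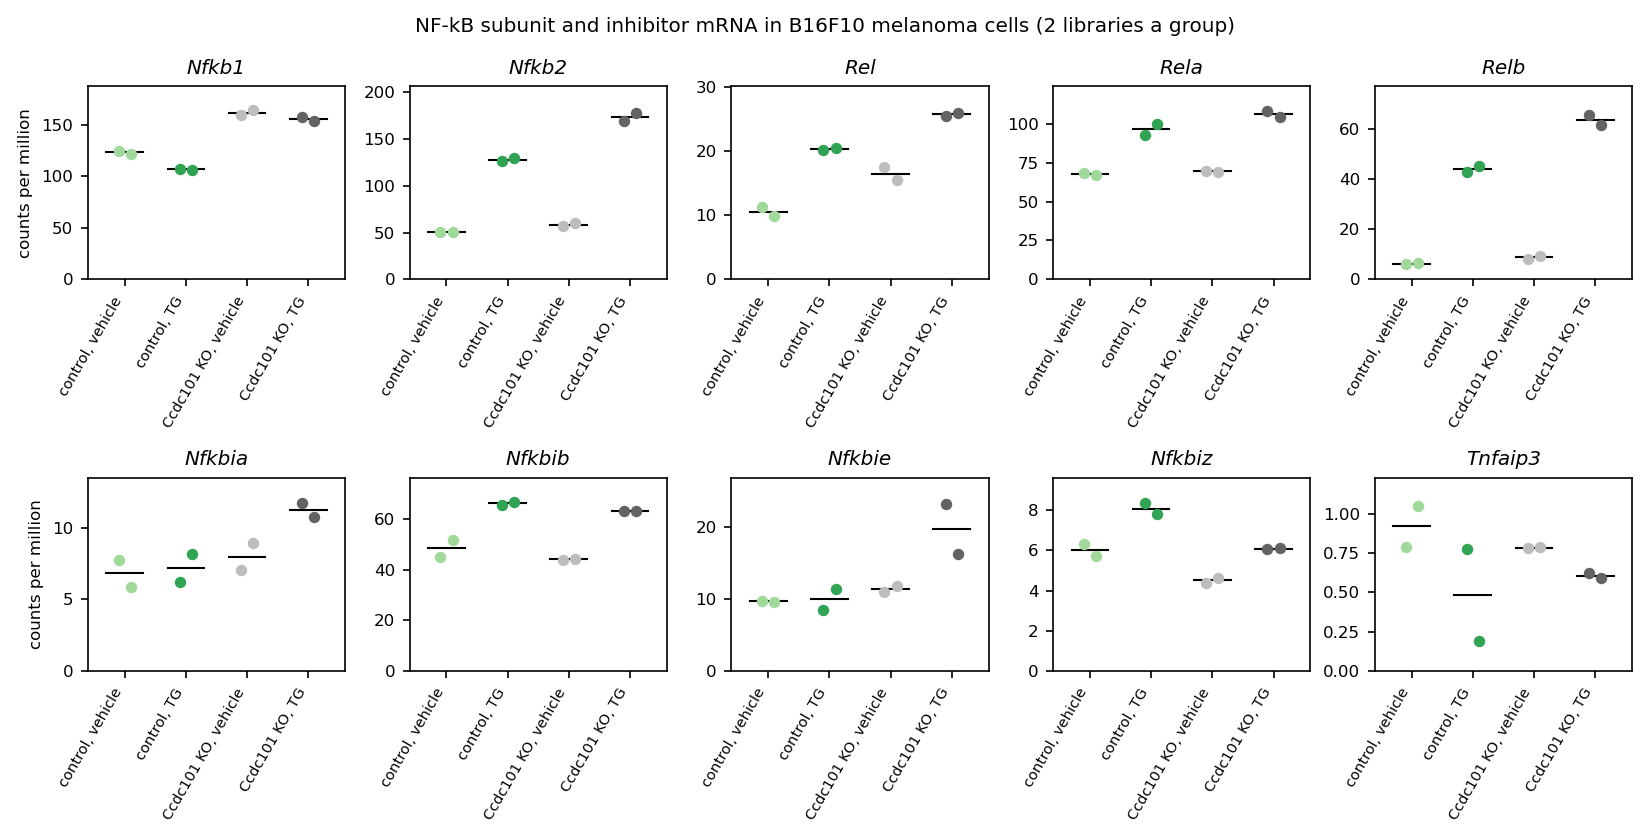
Each panel plots 1 member's mRNA in CPM (vertical axis, linear from 0) in the 4 melanoma groups, with 1 point a library and a line at the group mean. Relb lies at 5.96 to 9.37 CPM in the vehicle groups and at 42.5 to 65.4 CPM with TG, and Tnfaip3 does not exceed 1.05 CPM.

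Without TG, loss of Ccdc101 went with more mRNA of 4 subunit genes. Nfkb1 was 162 ± 3.01 CPM in the KO and 123 ± 2.29 CPM in control (SD, n = 2 each; log2 0.39 ± 0.042, adjusted p = 1.2e-09). Rel was at 17.6 and 15.4 CPM in the KO against 11.3 and 9.84 CPM (log2 0.64 ± 0.11, adjusted p = 2.2e-05). Relb (log2 0.49 ± 0.14) and Nfkb2 (log2 0.21 ± 0.057) were also higher, with no overlap between libraries. DESeq2 called neither of the last pair, and each lost its call without the second KO library with vehicle (Relb also without the first control library). Rela and the inhibitor genes were not called. Nfkbib was called lower only without the first control library (log2 -0.25, in place of -0.13 with all libraries). The 4 of 9 members higher compare with 12.4% of all genes higher and 13.3% lower. With DESeq2, 551 genes were higher and 939 lower, so that 37.0% of its calls were higher, against 48.2% with edgeR.

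Under TG the KO differed from control at more members. Nfkbie was 1.95-fold higher in the KO (log2 0.96 ± 0.16, adjusted p = 9.5e-05) and Nfkbia 1.56-fold higher (log2 0.64 ± 0.16, adjusted p = 0.0022). Nfkb1 (log2 0.54), Relb (0.53), Nfkb2 (0.44), Rel (0.34) and Rela (0.14) were higher as well. Nfkbiz was not called (log2 -0.41 ± 0.16, adjusted p = 0.052), but a filter at 5 CPM (adjusted p = 0.041) or leaving out either control vehicle library (0.048 each) called it lower. In total 7 of the 9 members were higher, against 16.6% of all genes higher and 15% lower. DESeq2 called 4 of them and lost Nfkbia, Rel and Rela. The call of Nfkbia was also lost without the first control library with TG, and that of Rela without the first TG library of either genotype. The comparisons of the KO with control share their libraries with the comparisons of TG with vehicle.

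In T cells, anti-CD3 activation with vehicle raised 9 of the 10 members. Nfkb2 rose from 97.9 and 106 CPM to 531 and 513 CPM (log2 2.36 ± 0.044, adjusted p = 8.9e-45). Rel rose from 46.4 and 49.0 CPM to 237 and 228 CPM (log2 2.29 ± 0.050, adjusted p = 1.4e-42). Nfkb1 rose from 642 and 639 CPM to 1160 and 1174 CPM (log2 0.87 ± 0.033) and Relb from 24.3 and 24.0 CPM to 46.5 and 46.9 CPM (log2 0.95 ± 0.072). Rela stood apart from the other subunits, at 119 and 118 CPM in resting and 116 and 118 CPM in activated cells (log2 -0.02 ± 0.046, adjusted p = 0.68). Its sign changed to positive with no filter on low counts and in a fit of only the compared groups.

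All 5 inhibitor and feedback genes rose with activation. Nfkbia rose from 24.7 and 24.2 CPM to 148 and 153 CPM (log2 2.62 ± 0.062, adjusted p = 2.2e-40), the largest change of the 10. Tnfaip3 rose from 64.7 and 60.7 CPM to 256 and 249 CPM (log2 2.01 ± 0.046, adjusted p = 3e-41). Nfkbib (log2 1.75), Nfkbie (1.27) and Nfkbiz (0.73) rose less. The 9 of 10 members called higher compare with 35.3% of all 13432 genes higher and 39.1% lower, and the 6 that were at least 2-fold higher with 12.2%. The median over the 10 was 1.51 on the log2 scale. The 6 myeloid markers summed to 17.2 and 17.6 CPM in resting cells with vehicle and to 2.65 to 4.91 CPM in the other T cell groups, of which Cd68 made up 15.2 and 16.1 CPM in resting cells with vehicle, with Lyz2, Csf1r and Adgre1 at or near 0. The 4 NK cell markers summed to 183 and 191 against 27.2 to 103 CPM, almost all of it Eomes (182 and 188 CPM in resting cells with vehicle), which CD8 T cells also express, while Ncr1 was at 0 and Klrb1c at 0.241 and 0.646 CPM.

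TG alone, with no anti-CD3, raised 9 members in resting T cells and lowered Nfkb1. Relb rose from 24.3 and 24.0 CPM to 112 and 113 CPM (log2 2.22 ± 0.064, adjusted p = 1.4e-36). That was the highest Relb level of the 6 T cell groups, with no overlap with any of them. Nfkb2 rose to 306 and 303 CPM (log2 1.58 ± 0.045) and Rel to 117 and 107 CPM (log2 1.24 ± 0.054). Rela rose to 144 and 154 CPM (log2 0.33 ± 0.046). Nfkb1 fell to 565 and 551 CPM (log2 -0.20 ± 0.034, adjusted p = 6.4e-07).

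The inhibitor and feedback genes also rose in the same cells. Tnfaip3 rose to 182 and 192 CPM (log2 1.58 ± 0.048, adjusted p = 1.9e-35) and Nfkbia to 60.8 and 54.7 CPM (log2 1.24 ± 0.074, adjusted p = 5.5e-22). Nfkbib rose to 65.5 and 72.6 CPM (log2 1.10 ± 0.094). Nfkbiz (log2 0.57) and Nfkbie (0.31) rose less. Of all genes 34.1% were called higher and 35.2% lower, and 6 of the 10 members, against 11% of all genes, were at least 2-fold higher. Activation and TG in resting cells share the resting vehicle libraries, so their values are only set side by side. They also differ in length, 24 hours for anti-CD3 and 8 hours for TG. Relb changed by 0.95 with activation and 2.22 with TG, Nfkbia by 2.62 and 1.24, Tnfaip3 by 2.01 and 1.58, and Nfkb1 by 0.87 and -0.20.

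In activated T cells the same TG dose divided the members. Nfkbia fell from 148 and 153 CPM to 88.9 and 82.9 CPM (log2 -0.81 ± 0.049, adjusted p = 2.3e-21), and Nfkb1 fell to 892 and 891 CPM (log2 -0.39 ± 0.033, adjusted p = 8.2e-16). Nfkb2 was 494 and 465 CPM with TG (log2 -0.12 ± 0.038, adjusted p = 0.0037) and Rel was 213 and 221 CPM (log2 -0.10 ± 0.040, adjusted p = 0.024). The last pair were small changes. The Nfkb2 call was lost without the first activated vehicle library or the second activated TG library, and the Rel call without the first library of either group, with DESeq2 and with a filter at 5 CPM.

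On the other side, Tnfaip3 rose from 256 and 249 CPM to 411 and 431 CPM (log2 0.74 ± 0.038, adjusted p = 1.1e-24). Rela rose from 116 and 118 CPM to 186 and 191 CPM (log2 0.69 ± 0.043, adjusted p = 5.6e-21). Nfkbib rose to 188 and 170 CPM (log2 0.73 ± 0.064) and Relb to 69.0 and 62.8 CPM (log2 0.49 ± 0.058). For Rela, Nfkbib and Tnfaip3, activated cells with TG held the highest level of all 10 groups. Nfkbie (log2 -0.03 ± 0.060) and Nfkbiz (log2 0.03 ± 0.066) overlapped between the groups and were not called. With 4 of 10 members higher and 4 lower, the shares were near those of all genes, 32.6% higher and 32.4% lower.

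**Figure D2:**
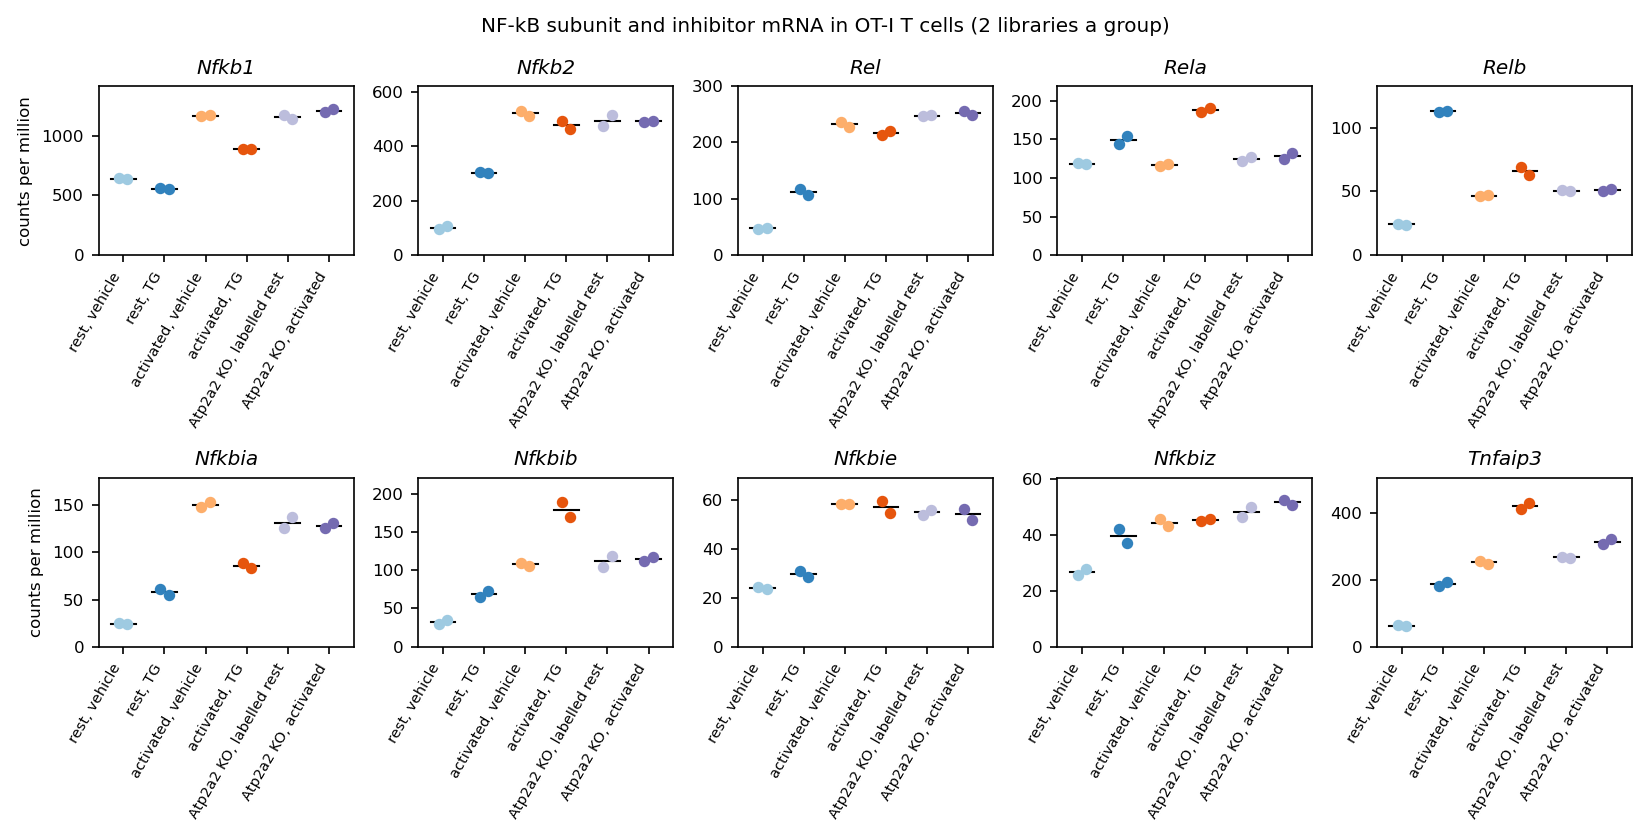
Each panel plots 1 member's mRNA in CPM (vertical axis, linear from 0) in the 6 T cell groups, with 1 point a library and a line at the group mean. Relb peaks in resting cells with TG at 112 and 113 CPM, Nfkbia in activated cells with vehicle at 148 and 153 CPM, and the libraries labelled resting Atp2a2 KO lie near the activated groups.

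The TG effect differed between activated and resting T cells at every member when that difference was tested. It was largest for Nfkbia (activated minus resting, log2 -2.05 ± 0.088, adjusted p = 2.9e-27). TG raised Nfkbia in resting and lowered it in activated cells, as it did, with small falls, for Nfkb2 and Rel. Relb (-1.73 ± 0.089), Nfkb2 (-1.70 ± 0.059) and Rel (-1.34 ± 0.068) followed, then Tnfaip3 (-0.84 ± 0.062) and Nfkbiz (-0.54 ± 0.10). Nfkbib (-0.37 ± 0.12), Nfkbie (-0.34 ± 0.10) and Nfkb1 (-0.19 ± 0.047) differed less, and the Nfkbib call was lost without the first resting vehicle library. Nfkb1 fell in both states, and by more in activated cells. Rela had the only positive difference (0.36 ± 0.063, adjusted p = 2.3e-06), since TG raised it by more in activated cells. The counts were 1 higher and 9 lower of 10, where 26.7% of all genes were higher and 25.2% lower, and 4 of the 10, against 6.44% of all genes, differed by at least 2-fold in the lower direction.

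**Figure D3:**
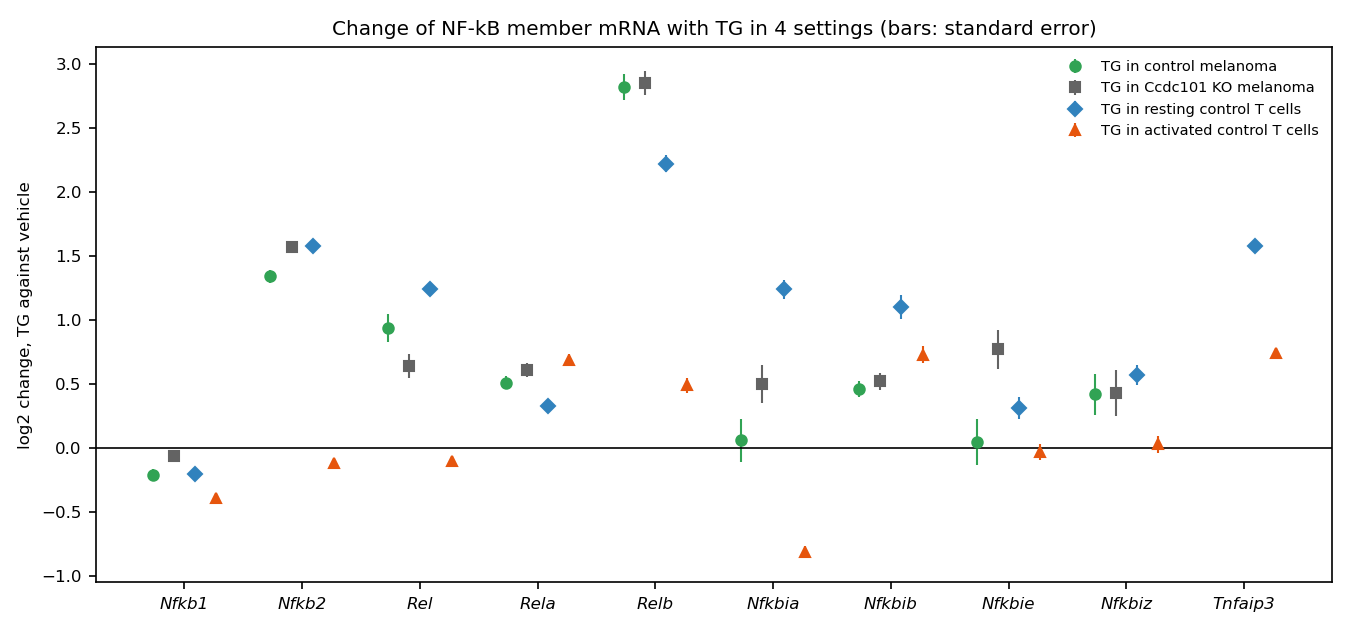
Points give the log2 change of each member with TG against vehicle (vertical axis) in control and Ccdc101 KO melanoma cells and in resting and activated control T cells, and bars are standard errors. Relb lies at 2.82, 2.85, 2.22 and 0.49 in that order, and Nfkbia is the only member below -0.5, in activated T cells; Tnfaip3 was not tested in melanoma.

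Activation in the presence of TG raised 9 members and lowered Relb, where 32% of all genes were higher and 31.9% lower. Relb was 113 ± 0.809 CPM in resting and 65.9 ± 4.34 CPM in activated cells with TG (SD, n = 2 each; log2 -0.78 ± 0.052, adjusted p = 2e-19). Nfkbib (log2 1.37 ± 0.070) and Tnfaip3 (1.17 ± 0.039) rose the most, and Rel (0.95), Nfkbie (0.94), Nfkb1 (0.68), Nfkb2 (0.66) and Nfkbia (0.57) rose by less. Rela, which did not pass the test in the vehicle comparison, rose by 0.34 ± 0.043 (adjusted p = 7.5e-10). The smallest change was that of Nfkbiz (0.19 ± 0.070, adjusted p = 0.017), which DESeq2 did not call and which was lost without the second library of either group.

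KO of Atp2a2 in activated T cells moved the members by little. Tnfaip3 was at 307 and 322 CPM in the KO and 256 and 249 CPM in control (log2 0.32 ± 0.038, adjusted p = 7.2e-10). Nfkbia was at 125 and 131 CPM against 148 and 153 CPM (log2 -0.23 ± 0.045, adjusted p = 3.5e-05). Groups did not overlap for either gene. Nfkbiz (0.22 ± 0.063), Rela (0.14 ± 0.044) and Rel (0.12 ± 0.039) were called higher but not with DESeq2, and Rel and Rela not without a filter. Nfkbiz and Rel also lost the call without the second activated control library or the first KO library, Rel without either resting TG library too, and Rela without the first control or the second KO library. Relb (0.13 ± 0.060, adjusted p = 0.092) and Nfkb2 (-0.08 ± 0.038, adjusted p = 0.073) were not called. Relb was called higher with a filter at 5 CPM and without either activated TG library, and Nfkb2 lower with relative log expression scaling, with no filter and without either resting TG library. Nfkb1, not called (0.05 ± 0.032, adjusted p = 0.22), was called higher only with the filter at 5 CPM (0.07, adjusted p = 0.041). The 4 members higher and 1 lower compare with 17.5% of all genes higher and 19.6% lower. Melanoma markers summed to 5.07 and 7.27 CPM in these control libraries and 1.28 and 1.08 CPM in the KO libraries. Other differences between the libraries of the 2 genotypes cannot be told apart from the KO.

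TG blocks SERCA2, the pump whose gene the KO targets, and their values in activated cells share the activated vehicle libraries. They are unlike in reach and time. TG inhibits the calcium pumps of the endoplasmic reticulum and was given for 8 hours, while the KO is of Atp2a2 alone. Side by side, Tnfaip3 changed by 0.74 with TG and 0.32 in the KO, Nfkbia by -0.81 and -0.23, Rela by 0.69 and 0.14, Nfkb1 by -0.39 and 0.05, and Nfkbib by 0.73 and 0.09. Cells with TG were also compared directly with KO cells. Of the 10 members, 4 were higher with TG (Nfkbib 0.64 ± 0.064, Rela 0.55 ± 0.043, Tnfaip3 0.42 ± 0.037, Relb 0.37 ± 0.058), where 30.5% of all genes were higher. Another 4 were lower (Nfkbia -0.57 ± 0.050, Nfkb1 -0.44 ± 0.033, Rel -0.22 ± 0.040, Nfkbiz -0.19 ± 0.065), where 30% of all genes were lower. DESeq2 did not call Nfkbiz, whose call was also lost without the first library of either group.

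The labelled resting Atp2a2 KO libraries had member levels close to those of activated cells. Against resting control cells, 9 of 10 members were higher, where 33.7% of all genes were higher and 35.9% lower. Rela was not called there (log2 0.08 ± 0.048, adjusted p = 0.13). It was called higher with no filter, in a fit of only the compared groups, and without any single TG library of resting or activated cells. Nfkb2 was at 474 and 514 CPM against 97.9 and 106 CPM (log2 2.28 ± 0.044), and Nfkbia at 125 and 137 CPM against 24.7 and 24.2 CPM (log2 2.42 ± 0.066). Against activated control cells, 15% of all genes were called higher and 16.6% lower, and among the members only Nfkbia was called (log2 -0.20 ± 0.047, adjusted p = 0.00081). That call was lost without the first labelled resting library. A filter at 5 CPM, or a fit of only the compared groups, called 4 members. These libraries are therefore not used as resting KO cells.

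The 2 cell types differed in most members before any treatment. With vehicle, 8 of the 9 members that passed the melanoma filter were lower in control melanoma than in resting control T cells, where 40.8% of 14824 genes were higher and 43% lower. Tnfaip3, which passed the filter only through T cells, is given as a description: control melanoma held 13 and 14 counts, and resting T cells 804 and 657. Nfkb1 was 5.89-fold lower, Rel 5.08-fold and Nfkbiz 5.03-fold. Nfkbib alone was higher in melanoma (log2 0.41 ± 0.087, adjusted p = 9.9e-05).

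The TG effect in control melanoma was tested against that in resting T cells. Relb rose more in melanoma (difference 0.57 ± 0.13, adjusted p = 0.00017). Nfkbib (-0.66 ± 0.11), Rel (-0.32 ± 0.12) and Nfkb2 (-0.26 ± 0.068) rose less in melanoma. Nfkbia, raised in resting T cells and not called in melanoma, differed by -1.20 ± 0.18. DESeq2 did not call Rel, which was also lost without the first library of control melanoma with vehicle, resting T cells with vehicle or resting T cells with TG. Among the 9 members that passed the melanoma filter, 1 was higher and 4 lower, where 23.6% of all genes were higher and 23.8% lower.

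Levels were compared between genes only as CPM per kilobase of exon. On that scale Rela made up 47.5% ± 0.20 of the 5 subunit mRNAs in control melanoma with vehicle (SD, n = 2), whereas Nfkb1 made up 42.0% ± 0.48 in resting T cells and Nfkb2 39.0% ± 0.66 in activated T cells. With TG the share of Relb went from 3.48% ± 0.27 to 13.7% ± 0.15 in control melanoma, from 4.24% ± 0.36 to 15.5% ± 0.60 in the KO and from 4.92% ± 0.076 to 14.2% ± 0.080 in resting T cells. In activated T cells it went from 4.12% ± 0.052 to 5.93% ± 0.32. The Nfkb1 share went from 22.1% ± 0.099 to 10.8% ± 0.36 in control melanoma and from 42.0% to 22.5% ± 0.44 in resting T cells. Library values did not overlap between vehicle and TG for these shares, which are descriptions with no test.

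**Figure D4:**
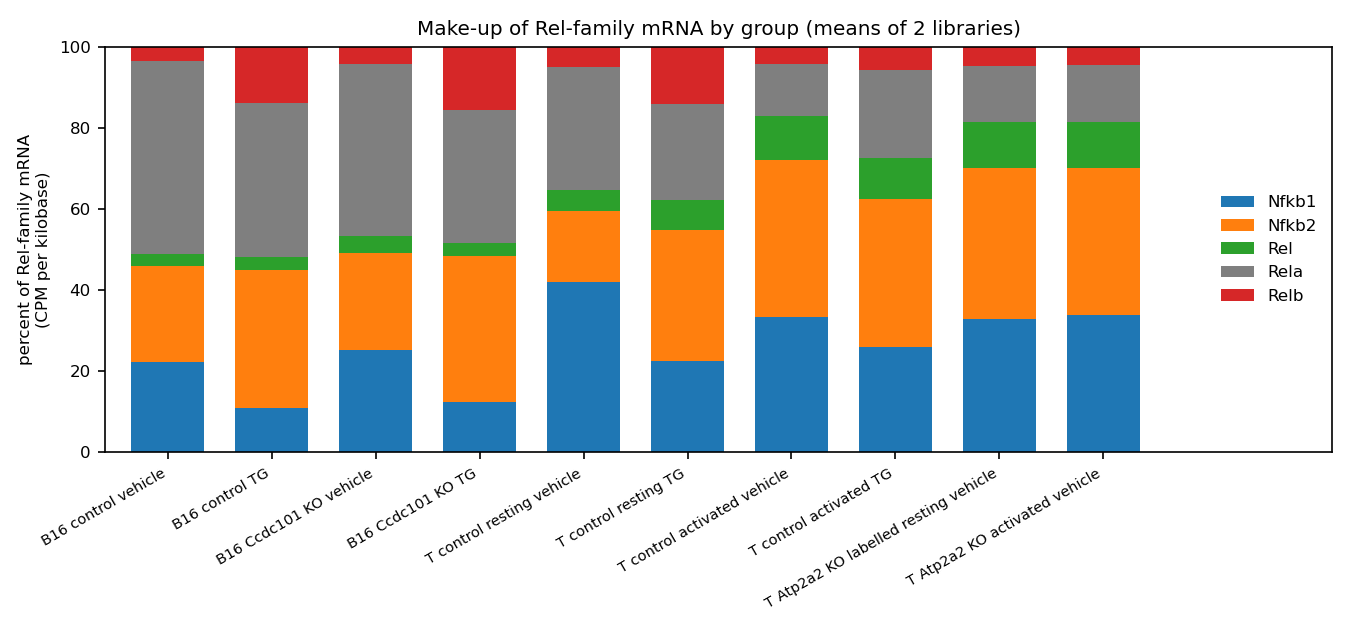
Stacked bars give each subunit's percent of the summed mRNA of the 5 subunit genes (vertical axis, from CPM per kilobase of exon) in the 10 groups, as means of 2 libraries. The Relb share is 13.7%, 15.5% and 14.2% in control melanoma, KO melanoma and resting T cells with TG, and at most 5.93% in the other 7 groups.

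The sum of Nfkbia, Nfkbib and Nfkbie over the sum of the 5 subunits, per kilobase, was 0.643 ± 0.036 in control melanoma with vehicle and 0.466 ± 0.0079 with TG (SD, n = 2). In KO melanoma it was 0.544 ± 0.018 and 0.405 ± 0.017. It was lower with TG in both genotypes, with no overlap between libraries. Resting T cells went the other way, from 0.300 ± 0.0076 to 0.378 ± 0.0049, and activated T cells had 0.556 ± 0.0083 with vehicle and 0.541 ± 0.028 with TG, where the libraries overlapped. These mRNA ratios were not tested and say nothing of protein.

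The rest of the pathway was followed through 84 genes in 8 lists, from ligands and receptors to target genes. In control melanoma, 53 passed the filter, and TG raised 28 and lowered 13 of them, where 35.7% of all genes were higher and 36.1% lower. Of the IkB kinase complex and the kinases above it 7 of 13 rose and 2 fell, and among those that rose were Chuk, a kinase subunit of the complex (log2 0.69 ± 0.044), and Tab2, an adaptor of the kinase above it (1.26 ± 0.035). Ubiquitin ligases and editors rose in 7 of 11, led by the deubiquitinase Cyld (1.30 ± 0.054). Of 10 textbook target genes 5 rose and 5 fell: the chemokine gene Cxcl10 (1.64 ± 0.12) and the caspase-8 regulator Cflar (1.53 ± 0.043) rose, and Irf1 (-1.43 ± 0.16) and Sdc4 (-1.23 ± 0.077) fell. In KO melanoma TG raised 30 and lowered 12 of the 53, where 34.1% of all genes were higher and 36.3% lower. The KO itself went with 13 higher and 2 lower with vehicle (12.4% and 13.3% of all genes), among them Ltbr, a receptor that feeds the non-canonical branch (log2 1.01 ± 0.061), and with 17 higher and 6 lower with TG (16.6% and 15% of all genes).

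In T cells 76 of the 84 genes were tested. Activation raised 43 and lowered 25, where 35.3% of all genes were higher and 39.1% lower. Of the IkB kinase complex and the kinases above it 3 of 13 rose and 8 fell. Activation raised 14 of 15 target genes and lowered 1, among them Csf2 (log2 4.17 ± 0.095) and Gadd45b (3.58 ± 0.091), and the receptor gene Tnfrsf4 (4.87 ± 0.058), while in the antigen receptor branch Prkcq (-1.69 ± 0.042) and Malt1 (-0.47 ± 0.040) fell. TG in resting cells raised 39 and lowered 23, where 34.1% of all genes were higher and 35.2% lower. The ligand gene Tnfsf14 rose from 9.90 ± 0.36 to 526 ± 11 CPM (SD, n = 2 each; log2 5.73 ± 0.061), and the kinase gene Ripk2 rose as well (2.54 ± 0.060), whereas Bcl3, a nuclear IkB-like gene (-1.27 ± 0.088), Lta (-1.69 ± 0.050) and Map3k14, the kinase of the non-canonical branch (-1.26 ± 0.098), fell.

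TG in activated cells raised 27 and lowered 35 of the 76, where 32.6% of all genes were higher and 32.4% lower. Target genes were lower in 12 of 15 and higher in 3, among them Bcl2l1 (log2 -1.20 ± 0.040), and the ligand gene Lta fell from 254 to 19.1 CPM (-3.73 ± 0.055). Tnip3, a partner of the Tnfaip3 protein, rose (2.17 ± 0.053), and Il6 rose (2.41 ± 0.082). When the TG effects were compared, 45 genes were lower and 17 higher in activated than in resting cells, where 25.2% of all genes were lower and 26.7% higher. With the Atp2a2 KO, 19 were higher and 25 lower, where 17.5% of all genes were higher and 19.6% lower, with 11 of 15 target genes lower and 1, Csf2, higher (1.39 ± 0.045).

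Across the 12 T cell libraries, the levels of Nfkb2 and Rel varied together most closely among the subunits (Pearson r of log2 CPM 0.98), while Relb and Nfkb1 did not (r = -0.18). Among 9302 genes, Relb was most like Otud7b (r = 0.992), Wnt10b (0.991) and Senp6 (0.987), Nfkbia most like Rabggtb, Lrpprc and Rrp8 (0.994 each), and Tnfaip3 most like Stat3 (0.997), Dlc1 (0.995) and Zbtb32 (0.992). The libraries fall into 6 groups of 2, so these r values describe mostly group means. Spearman rho was 0.867 for Otud7b and Wnt10b with Relb, and 0.923 to 0.979 for the other 7 genes named. For scale, 2.27% of those genes had an r above 0.9 with Relb, 7.27% with Nfkbia and 6.36% with Tnfaip3.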

How the data were processed

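Per the submitters' processing notes, STAR 2.6.0c was used with the GRCm38 (mm10) genome, and HTSeq is listed too. The counting annotation and strand setting are not given in the sources used here. The values are gene counts as deposited by the authors, not normalized. Symbols came from GENCODE M21, which named 46091 of 46603 identifiers, and the 512 without a name held 0.0759% of counts.

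CPM and tests were computed with edgeR 4.0.16 in R 4.3.3. The melanoma fit held 8 libraries and 12540 genes (4 residual degrees of freedom). The T cell fit held 12 and 13432 (6), and a fit across cell types 20 and 14824 (10). Libraries were scaled by TMM, the trimmed mean of M values, low genes were removed by filterByExpr, and robust glmQLFit was followed by glmQLFTest. Benjamini-Hochberg adjustment ran over each whole table, with a threshold of 0.05. A standard error is the size of the log2 change over the square root of F. CPM per kilobase used the union of GENCODE exons and the scaling of all 20 libraries. Depth was 9985311 to 17462770 counts a library, and the common biological coefficient of variation 2.71% in melanoma and 2.80% in T cells. The 2 libraries of each group differed by more than counting noise (chi-square per degree of freedom 1.43 to 3.09).

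The 10 members, the 84 pathway genes and the marker lists were chosen with earlier results of these data known. The genes named are the 10 members, Sgf29 and Atp2a2, the 3 genes most like each of Relb, Nfkbia and Tnfaip3, and up to 4 called genes per list with the largest change and a group mean of at least 10 CPM. The alternatives were DESeq2 1.42.0, scaling by relative log expression, no removal of low genes, a minimum of 5 CPM in 2 libraries, the replicate number as a term, a fit of the compared groups alone, a fit without the labelled resting libraries, and leaving out each library. The pipeline was tested on simulated data.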

Additional observations from a re-analysis of the deposited data

Results flagged for a closer look

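These results differ between cell states, genotypes or cell types under the same contrast, by a test of the difference in TG effect itself (edgeR's quasi-likelihood test, adjusted over all genes). Between activated and resting T cells, the log2 difference was -2.05 for Nfkbia, -1.73 for Relb, -1.70 for Nfkb2, -1.34 for Rel, -0.84 for Tnfaip3, -0.54 for Nfkbiz, -0.37 for Nfkbib, -0.34 for Nfkbie and -0.19 for Nfkb1. It was 0.36 for Rela, the only positive difference of the 10. Between control melanoma and resting T cells, it was 0.57 for Relb, -0.26 for Nfkb2, -0.32 for Rel, -0.66 for Nfkbib and -1.20 for Nfkbia. Between Ccdc101 KO and control melanoma, it was 0.73 for Nfkbie and 0.22 for Nfkb2. Activated cells started from higher levels of 9 of the 10 members, and the part of that starting level in the differences was not tested.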

How the results depend on the processing

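The counts and calls of members depend on the tool. Calls lost with DESeq2 had log2 changes of at most 0.73 in size, that of Nfkbie in the difference between melanoma genotypes. Some smaller changes kept their call, such as Nfkb1 with TG in control melanoma (-0.21). The cause was not tested in any case. Of 2860 refits of a member in a comparison, 2732 kept direction and side of the threshold, 69 lost the call, 36 gained one and 23 turned sign. Of 114 called member results, 20 lost the call in at least 1 refit. These counts include Tnfaip3 in the comparisons of control melanoma with resting T cells, where it passed the filter only through T cells.

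With DESeq2 the members called were 2 in place of 4 for the Ccdc101 KO with vehicle, 4 in place of 7 for the KO with TG, 2 in place of 5 for the Atp2a2 KO in activated cells and 0 in place of 2 for the difference of TG effect between melanoma genotypes, where 2 had an unadjusted DESeq2 p below 0.05. Over all genes, DESeq2 called 1490 in place of 3218, 2073 in place of 3956, 3082 in place of 4986 and 598 in place of 1644 in these comparisons, and 2629 in place of 4237 for labelled resting KO against activated control. That genotype difference also fell to 1 member with a filter at 5 CPM. For labelled resting KO against activated control, no filter gave 2 members, a filter at 5 CPM 4, and only the compared groups 4, in place of 1. Without a filter, the share of all calls that were higher was 64.4% in place of 52.5% for the KO with TG, 70.5% in place of 54.6% for the genotype difference, and 31.1% in place of 47.5% for that labelled resting comparison.

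Libraries with the same replicate number showed little shared deviation from their group means (correlations over genes -0.075 to 0.033 in melanoma and -0.11 to 0.11 in T cells). Whether such libraries shared a culture or batch was not tested. A fit with the replicate number as a block called 1 member in place of 2 for the genotype difference, and changed no other count of members by over 1.5 times.

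Leaving out 1 library at a time gave 2 to 4 members for the Ccdc101 KO with vehicle, 0 to 2 for the genotype difference, 3 to 6 for the Atp2a2 KO in activated cells and 0 to 3 for labelled resting KO against activated control. Where edgeR gave 0, between 3 and 4 members had an unadjusted p below 0.05. For all genes, the KO with TG fell from 3956 calls to 2615 without the second KO library with TG, and the genotype difference from 1644 to 1090 without the first KO library with vehicle.

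Uncalled members near 0 turned sign. With no filter, Nfkbie with TG in control melanoma was -0.00, Rela with activation 0.08, Nfkbiz with TG in activated cells -0.05 and Nfkbib in labelled resting KO against activated control -0.02. With only the compared groups, Rela was 0.04 and Nfkb1 in that labelled resting comparison 0.00. Leaving out 1 library gave -0.15 to 0.31 for Nfkbia and -0.18 to 0.23 for Nfkbie with TG in control melanoma, -0.03 to 0.04 for Rela with activation, and -0.02 to 0.08 for Nfkbiz and -0.08 to 0.05 for Nfkbie with TG in activated cells. The genotype difference ran from -0.05 to 0.09 for Nfkbiz, -0.05 to 0.14 for Relb and -0.03 to 0.17 for Nfkbib, and the labelled resting comparison from -0.06 to 0.14 for Nfkbib and -0.05 to 0.00 for Nfkb1. Low counts limit some melanoma values: Tnfaip3 had at most 14 counts a library, and Nfkbiz, Nfkbia and Relb had 53 to 128 with vehicle.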
